A study of Mus musculus with 6 samples.

Results

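The genes described here are 10 members of the Notch signalling pathway, taken by their symbols from the 26608 gene rows of a liver RNA-seq count table. They are the receptors Notch1, Notch2, Notch3 and Notch4, the ligands Jag1, Jag2 and Dll4, and the target genes Hes1, Hey1 and Heyl. Whole liver RNA came from 6 mice aged 6 weeks, 3 of the genotype LiKM and 3 of the genotype LiK, with 1 library per mouse. The labels do not spell the names out; from what is known of the published study, LiKM hepatocytes lack Mdm2, which LiK hepatocytes keep, and Mdm2 is the ubiquitin ligase that holds down the tumour suppressor p53. The comparison asks how the Notch genes differ when Mdm2 loss is added to the LiK genotype. The promoter that drives recombination is not given in the sources used here, nor are sex and litter.

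Notch signalling passes between touching cells. A Jagged or Delta-like ligand on a cell binds a Notch receptor on its neighbour, ADAM proteases and gamma-secretase then cut the receptor, and the freed intracellular piece joins the DNA-binding protein RBPJ and a Mastermind coactivator to switch on genes of the Hes and Hey families. In the liver, Jag1 and Notch2 are known for bile duct formation, Dll4, Notch1 and Notch4 for endothelial cells, and Notch3 for the mural and stellate cells beside vessels.

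The libraries held 19909993 to 20762712 counts in LiKM and 20778717 to 24874343 in LiK. Levels are given as CPM, depth-scaled counts after TMM scaling, and a gene was called when its Benjamini-Hochberg adjusted p over the 13537 tested genes was under 0.05 in edgeR's quasi-likelihood test. Each fold change is LiKM over LiK on the log2 scale, with its standard error. Mdm2 itself had 122, 125 and 60.5 CPM in LiKM and 28.7, 29.0 and 28.6 CPM in LiK (1.83 ± 0.27, edgeR adjusted p = 0.0196), a call that was lost without LiK 1, LiK 2, LiK 3 or LiKM 2, at adjusted p between 0.0520 and 0.0840. Gene-level counts sum all exons and so do not check the deletion. Trp53, the gene of p53, was not called (0.22 ± 0.20, edgeR adjusted p = 0.575), nor was the p53 target Cdkn1a, at 115 to 159 CPM in LiKM and 2.95 to 34.4 CPM in LiK (3.02 ± 0.73, edgeR adjusted p = 0.0591). Albumin, the hepatocyte's main secreted protein, stood at 91378 to 103215 CPM in LiKM and 80638 to 101784 CPM in LiK. LiKM 3 stood apart from the other LiKM libraries on the second principal component, at -37.8 against 28.4 for LiKM 1 and 20.2 for LiKM 2. The members' results that LiKM 3 moved most are therefore also given without it. LiK 3 stood apart from its own group on the first component, at -24.9 against -45.9 for LiK 1 and -42.1 for LiK 2.

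Of the 10 genes, 9 had enough counts to be tested, and Jag2 did not. Notch1 and Notch3 were called higher in LiKM, 2 of 9, against 5.11% of all tested genes called higher and 5.92% called in either direction. No member was called lower, against 0.813% of all genes called lower in edgeR. DESeq2 and limma-voom also called 0 members lower, beside 377 and 94 of all 13537 tested genes. In edgeR, 4 members had an unadjusted p under 0.05 and 0 of those were lower. The share of all tested genes at that unadjusted p was not computed. The 3 LiKM libraries all lay above the 3 LiK libraries for Notch1, Notch3, Jag1, Hes1 and Heyl, 5 of 9 tested members, against 17.8% of all tested genes. Dll4 alone of the tested members had its LiKM libraries all below its LiK libraries, a pattern found in 11.8% of all tested genes; 29.6% of all tested genes had libraries that did not overlap in either direction. The median log2 fold change of the 9 was 0.35, beside -0.0034 for all tested genes.

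The upstream sequences of 3 receptors are shown because Notch1 and Notch3 were called higher in LiKM and Notch2, the receptor with the highest level per kilobase of exon, was not. Each runs from 250 to 13 bases before the RefSeq transcription start in GRCm38.p6, 5′ to 3′ on the gene's own strand. Capitals mark the GC box GGGCGG, read by Sp-family factors, and the N-box CACNAG, read by Hes repressors, on either strand.

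Notch1 promoter, chr2:26503835-26504072, minus strand: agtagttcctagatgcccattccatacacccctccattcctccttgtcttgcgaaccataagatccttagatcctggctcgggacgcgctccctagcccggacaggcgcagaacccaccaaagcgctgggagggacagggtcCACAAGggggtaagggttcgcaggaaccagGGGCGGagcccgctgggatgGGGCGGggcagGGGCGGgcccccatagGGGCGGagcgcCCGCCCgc

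Notch3 promoter, chr17:32166903-32167140, minus strand: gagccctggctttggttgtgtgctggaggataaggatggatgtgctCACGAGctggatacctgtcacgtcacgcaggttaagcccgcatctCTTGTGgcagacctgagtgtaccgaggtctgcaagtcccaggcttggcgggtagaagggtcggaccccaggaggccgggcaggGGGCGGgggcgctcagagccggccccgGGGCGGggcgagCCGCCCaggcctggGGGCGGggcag

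Notch2 promoter, chr3:98013288-98013525, plus strand: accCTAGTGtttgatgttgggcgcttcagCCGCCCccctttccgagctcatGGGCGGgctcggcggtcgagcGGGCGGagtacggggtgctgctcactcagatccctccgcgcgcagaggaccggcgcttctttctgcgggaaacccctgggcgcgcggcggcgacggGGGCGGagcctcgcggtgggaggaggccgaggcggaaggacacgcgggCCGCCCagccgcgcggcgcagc

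Each of these windows held several GC boxes, 5 before Notch1, 4 before Notch3 and 5 before Notch2, none overlapping another marked match. A GC box occurs in 31.0% of 32851 mouse promoters searched over the same window, and an N-box in 35.4%. RefSeq windows were matched for 7 of the 10 genes, and the GC box was found in 5 of those 7 and the N-box in 4. The Jag2 window, counted among those with a GC box, lay wholly in annotated Jag2 exon, 238 of 238 bases. The Jag1 window had 112 bases in annotated Jag1 exon, and the 3 windows printed above had 0 in any exon. None of the 7 held the RBPJ core TGGGAA (20.6% of all promoters), the E-box CACGTG (5.62%) or the p53 half-site (6.81%). These matches describe letters in a short window and do not show binding. The Notch1 and Notch3 windows, whose genes were called, and the Notch2 window, whose gene was not, held the same searched motifs.

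Notch1, which directs cell fate in many tissues and sprouting in endothelium, was the member with the largest called change. It had 49.7, 70.8 and 30.4 CPM in LiKM, against 19.5, 16.1 and 13.2 CPM in LiK. All LiKM libraries lay above all LiK libraries, and LiKM 3 was the lowest of them. The log2 fold change was 1.63 ± 0.31, a 3.10-fold difference, with a Benjamini-Hochberg adjusted p of 0.0317 in edgeR. The call held without LiKM 3 (1.87, edgeR adjusted p = 0.0121) and was lost on leaving out any of the other 5 libraries, at adjusted p between 0.0691 and 0.112 and log2 fold changes of at least 1.28. Whole liver counts cannot tell a change in RNA per cell from a change in how many cells of a type are present, here and for every gene below.

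Notch3, the receptor of vascular smooth muscle and pericytes, had the most even values of the members in LiKM. It stood at 5.26, 5.22 and 4.97 CPM in LiKM, against 2.21, 2.62 and 2.91 CPM in LiK. The genotypes did not overlap, and the spread within LiKM was far smaller than the gap between genotypes. Its log2 fold change was 0.99 ± 0.19, a 1.99-fold difference (edgeR Benjamini-Hochberg adjusted p = 0.0327). That call was lost on leaving out each of the 6 libraries in turn, with adjusted p between 0.0513 and 0.117 while the log2 fold change stayed between 0.89 and 1.09.

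Notch2, the receptor of bile duct formation, was not called. It had 44.8, 62.9 and 49.8 CPM in LiKM and 42.2, 51.0 and 48.4 CPM in LiK. The groups overlapped, with LiKM 2 the highest library, and the log2 fold change was 0.15 ± 0.15 (edgeR adjusted p = 0.593). Without LiKM 2 it was -0.02.

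Notch4, a receptor found mainly in endothelium, was also not called. Its values were 5.73, 4.36 and 2.94 CPM in LiKM and 6.26, 6.19 and 4.88 CPM in LiK. LiKM 3 and LiKM 2 lay below every LiK library and LiKM 1 lay among them. The log2 fold change was -0.41 ± 0.27 (edgeR adjusted p = 0.415), and it was -0.21 without LiKM 3 and -0.69 without LiKM 1.

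Among the ligands, Jag1, the Jagged ligand of bile duct and portal vein cells, had its highest value in a single library. It stood at 6.63, 6.94 and 17.4 CPM in LiKM, against 5.20, 5.64 and 5.13 CPM in LiK. Every LiKM library was above every LiK library, but LiKM 1 and LiKM 2 were close to LiK and LiKM 3 was far above both. The log2 fold change of 0.95 ± 0.38 was not called (edgeR adjusted p = 0.197), and without LiKM 3 it was 0.33 (edgeR adjusted p = 0.308).

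Dll4, the Delta-like ligand of arterial and sprouting endothelium, pointed the other way without being called. It had 2.91, 3.49 and 1.78 CPM in LiKM and 3.61, 5.03 and 4.10 CPM in LiK. All LiKM libraries lay below all LiK libraries, LiKM 3 the lowest. Its log2 fold change was -0.63 ± 0.29 (edgeR adjusted p = 0.250), and -0.43 without LiKM 3 (edgeR adjusted p = 0.346).

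Jag2, the other Jagged ligand, was near the limit of detection. It had 10, 11 and 8 counts in LiKM, against 2, 3 and 2 counts in LiK. The summed 29 counts in LiKM and 7 in LiK gave a depth-scaled ratio of 4.20, with an exact 95% interval of 1.80 to 11.4 that covers counting error only. With the filter on low counts removed, its log2 fold change was 1.99 and was not called (edgeR adjusted p = 0.0967).

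None of the 3 target genes was called. Hes1, the repressor that most cells use as a Notch target, had 9.77, 9.17 and 9.69 CPM in LiKM, against 7.27, 8.71 and 7.26 CPM in LiK. The groups did not overlap, and LiK 2 came close to LiKM 2. The log2 fold change was 0.30 ± 0.14 (edgeR adjusted p = 0.262).

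Heyl, a Hey-family repressor, had 2.16, 2.77 and 5.21 CPM in LiKM, against 1.11, 1.46 and 1.81 CPM in LiK. As with Jag1, LiKM 3 was the highest library, and the genotypes did not overlap. The log2 fold change was 1.20 ± 0.39 (edgeR adjusted p = 0.123), and 0.73 without LiKM 3 (edgeR adjusted p = 0.224). DESeq2 called it (1.18, adjusted p = 0.0464).

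Hey1, a Hey-family repressor of endothelium, was scarce. It had 0.611, 0.907 and 0.289 CPM in LiKM and 0.482, 0.403 and 0.533 CPM in LiK. LiKM held both the highest and the lowest library, and the log2 fold change of 0.35 ± 0.46 was not called (edgeR adjusted p = 0.695). Without LiKM 2 it was -0.09, and without LiKM 3 it was 0.65.

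**Figure D1:**
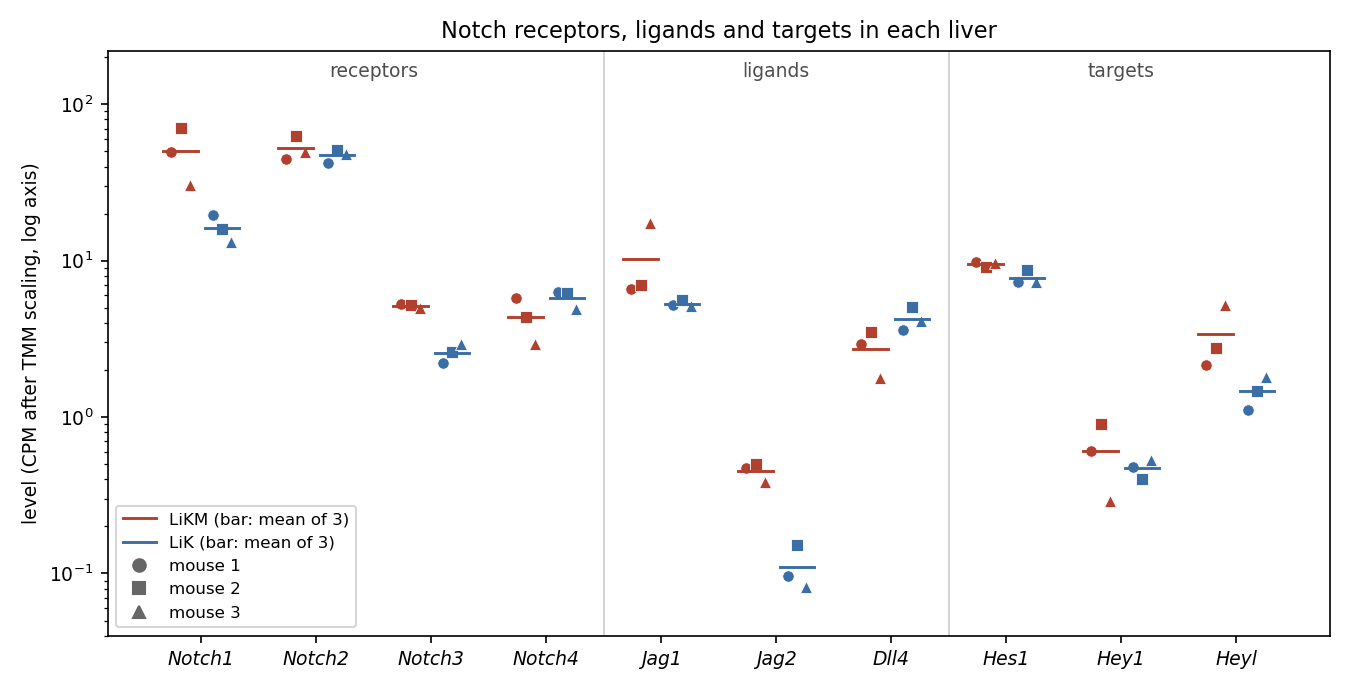
Level of each of the 10 genes in CPM after TMM scaling (log axis), with 1 point per library, LiKM left of LiK, and the mean of 3 libraries as a bar. Notch1 and Notch3 show separate groups, while the high Jag1 point at 17.4 CPM and the high Heyl point at 5.21 CPM both belong to LiKM 3.

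Because longer genes collect more counts, levels were set against each other only per kilobase of exon, with the union of GENCODE vM21 exons as the length. In CPM per kilobase, Notch2 led in LiKM at 4.87 ± 0.868, followed by Hes1 at 4.68 ± 0.162, Notch1 at 3.53 ± 1.42 and Jag1 at 1.77 ± 1.05 (SD, n = 3). Dll4 at 0.709 ± 0.226, Heyl at 0.661 ± 0.315, Notch3 at 0.637 ± 0.0198 and Notch4 at 0.539 ± 0.173 CPM per kilobase formed a run in LiKM whose neighbours differed by less than their spread. The first 3 places of LiKM likewise did not separate beyond the spread of Notch1 and Notch2, and Hey1 and Jag2 came last.

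In LiK the order in CPM per kilobase was Notch2 at 4.38 ± 0.419, Hes1 at 3.80 ± 0.408, Notch1 at 1.14 ± 0.223, Dll4 at 1.10 ± 0.187, Jag1 at 0.913 ± 0.0471 and Notch4 at 0.717 ± 0.0962 (SD, n = 3). Notch3 at 0.319 ± 0.0434 and Heyl at 0.285 ± 0.0683 CPM per kilobase were next, with Hey1 and Jag2 again last. Notch1 and Dll4, and Notch3 and Heyl, were neighbours in LiK that differed by less than their spread. Jag1 was 4th in LiKM and 5th in LiK, and Heyl 6th in LiKM and 8th in LiK. The order at the top depends on the length used: by the longest coding transcript, Hes1 led in both genotypes, and Notch1 came before Notch2 in LiKM and after it in LiK.

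The make-up of the receptor pool was compared as shares of summed CPM per kilobase, which do not depend on library scaling. With 3 mice against 3, the smallest p of the exact two-sided permutation test is 0.1, so no share could pass 0.05. Notch1 made up 38.7%, 41.5% and 27.6% of receptor level in LiKM, against 21.6%, 16.2% and 14.5% in LiK. Notch2 made up 46.1%, 48.7% and 59.7% in LiKM, against 61.8%, 68.1% and 70.3% in LiK. The Notch1 share was higher in 3 of 3 LiKM libraries and the Notch2 share lower in 3 of 3, each at the smallest exact permutation p of 0.1. Shares of a pool are bound together, so a higher Notch1 share by itself lowers the others, and these are not separate results. The Notch2 level itself was not lower, at a mean of 4.87 CPM per kilobase in LiKM and 4.38 in LiK. Notch4 averaged 5.71% ± 1.90 in LiKM and 10.9% ± 1.38 in LiK (exact permutation p = 0.1), and Notch3 averaged 6.85% ± 1.32 in LiKM and 4.87% ± 0.690 in LiK with overlapping libraries (exact permutation p = 0.2). Summed receptor level was 9.01, 12.0 and 7.73 CPM per kilobase in LiKM, against 6.34, 6.95 and 6.38 CPM per kilobase in LiK, so the pool as a whole was higher in each LiKM library.

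The ligand pool holds only the members Jag1, Jag2 and Dll4, and leaves out Dll1, which is described below. In this pool, Jag1 made up 58.0%, 54.9% and 85.2% in LiKM, against 48.4%, 42.1% and 45.0% in LiK. Dll4 made up 38.6%, 41.8% and 13.2% in LiKM, against 50.8%, 56.9% and 54.4% in LiK. The groups did not overlap for either ligand (exact permutation p = 0.1 each), and LiKM 3 lay far from the other LiKM libraries in both. With Jag2 so small, the Jag1 and Dll4 shares nearly mirror each other and are not separate results. The difference in mean share, LiKM minus LiK, was 20.8 percentage points for Jag1 and -22.9 for Dll4, and without LiKM 3 it was 11.3 for Jag1 and -13.9 for Dll4. Jag2 stayed small, at 2.78% ± 1.03 in LiKM and 0.765% ± 0.172 in LiK (exact permutation p = 0.1). Summed ligand level was 1.96, 2.17 and 3.50 CPM per kilobase in LiKM, against 1.84, 2.30 and 1.96 CPM per kilobase in LiK, and overlapped.

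The target pool holds only the members Hes1, Hey1 and Heyl, without the further genes listed as targets below. Hes1 made up 84.8% ± 3.80 of the summed level in LiKM and 89.8% ± 2.13 in LiK (exact permutation p = 0.2), with overlapping libraries. Heyl averaged 11.8% ± 4.97 in LiKM and 6.75% ± 1.67 in LiK (exact permutation p = 0.2), and its LiKM 3 share of 17.4% was the highest of all libraries. The difference in mean Heyl share was 5.04 percentage points, LiKM minus LiK, and 2.25 without LiKM 3. Hey1 averaged 3.40% ± 1.86 in LiKM and 3.46% ± 0.729 in LiK (exact permutation p = 1). Summed target level was 5.41, 5.32 and 5.86 CPM per kilobase in LiKM, against 3.93, 4.68 and 4.08 CPM per kilobase in LiK, without overlap.

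**Figure D2:**
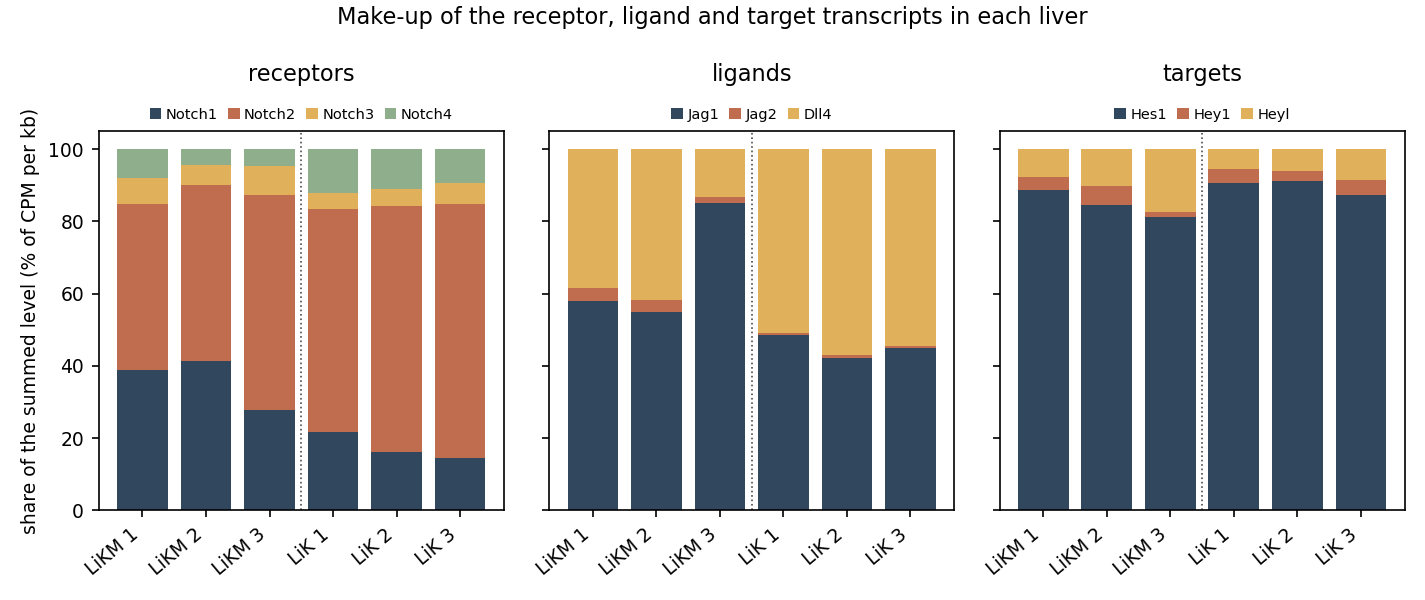
Share of each gene in the summed level per kilobase of its class (receptors, ligands, targets), in percent. Classes hold only the members, so Dll1 is not included. Bars are stacked for each library, LiKM left of LiK. Notch1 takes 27.6% to 41.5% of the receptor level in LiKM and 14.5% to 21.6% in LiK, and Jag1 reaches 85.2% of the ligand level in LiKM 3.

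Beyond these 10, the wider pathway was read through 51 further genes, of which 42 were tested. Neurl1b was the only one called higher in edgeR, 1 of 42 beside 5.11% of all tested genes. In edgeR, DESeq2 and limma-voom 0 were called lower, beside 110, 377 and 94 of all 13537 tested genes. At an unadjusted p under 0.05 in edgeR, 5 of 42 were lower, and that share of all tested genes was not computed. Of the 42, 22 had a positive and 20 a negative log2 fold change, with a median of 0.034. Neurl1b, a ubiquitin ligase that acts on Notch ligands at the membrane, had 4.84, 5.31 and 4.48 CPM in LiKM, against 0.530, 0.503 and 1.35 CPM in LiK. The genotypes lay far apart, LiK 3 being the highest LiK library. Its log2 fold change was 2.58 ± 0.39 (edgeR Benjamini-Hochberg adjusted p = 0.0209), larger than that of any of the 9 tested members. The call was lost without LiK 1, LiK 2 or LiKM 2, at adjusted p between 0.0758 and 0.0817.

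Dll1, the only other ligand tested, had 8.27, 11.8 and 5.74 CPM in LiKM, against 4.43, 5.49 and 4.35 CPM in LiK. The groups did not overlap, and LiKM 3 was the lowest LiKM library. Its log2 fold change was 0.86 ± 0.28 and was not called (edgeR adjusted p = 0.123), and without LiKM 3 it was called (edgeR adjusted p = 0.0496). Dlk1, a ligand-like protein of fetal liver, was too scarce to be tested: it had 24, 39 and 3 counts in LiKM, against 1, 0 and 1 in LiK. The depth-scaled ratio was 33.5, with an exact 95% counting interval of 8.91 to 282. Dlk1 was named after its values were seen.

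The machinery that carries the signal was not called in either direction. Of 9 nuclear cofactors, log2 fold changes lay between -0.54 and 0.21, and Kat2b, an acetyltransferase, had -0.26 ± 0.12. RBPJ's gene, Rbpj, had 17.0, 18.3 and 19.3 CPM in LiKM and 13.3, 16.0 and 18.0 CPM in LiK, and the libraries overlapped. Across 9 genes of receptor cleavage the range was -0.29 to 0.35, with Furin, the protease that matures the receptor, at -0.27 ± 0.14 and Psen2, a catalytic gamma-secretase subunit, at 0.29 ± 0.18. Of 6 sugar transferases, which tune ligand choice, Pofut1 had 0.07 ± 0.14 and Rfng -0.29 ± 0.10. Lfng, a fringe enzyme, had 7.05, 5.90 and 5.11 CPM in LiKM and 2.99, 3.93 and 3.94 CPM in LiK, and was not called by edgeR (0.73 ± 0.21, adjusted p = 0.0886) but was by DESeq2 (adjusted p = 0.0408).

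Of 12 ubiquitin ligases, Neurl1b was the one called. Dtx4, a Deltex ligase, had 7.24, 14.2 and 31.9 CPM in LiKM, against 7.66, 9.01 and 6.69 CPM in LiK, and was not called (1.19 ± 0.49, edgeR adjusted p = 0.205). LiKM 3 was again the highest library, LiKM 1 lay among the LiK values, and without LiKM 3 the log2 fold change was 0.44 (edgeR adjusted p = 0.431). The Notch inhibitors Numb and Numbl had log2 fold changes of -0.09 ± 0.11 and 0.36 ± 0.39. The 3 further tested genes listed as targets had negative log2 fold changes and were not called. They were Hes6 at -0.36 ± 0.30, Nrarp at -0.37 ± 0.28 and Snai2 at -0.12 ± 0.48. Lfng, Dtx4, Rbpj and Nrarp were also named after their values were seen.

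**Figure D3:**
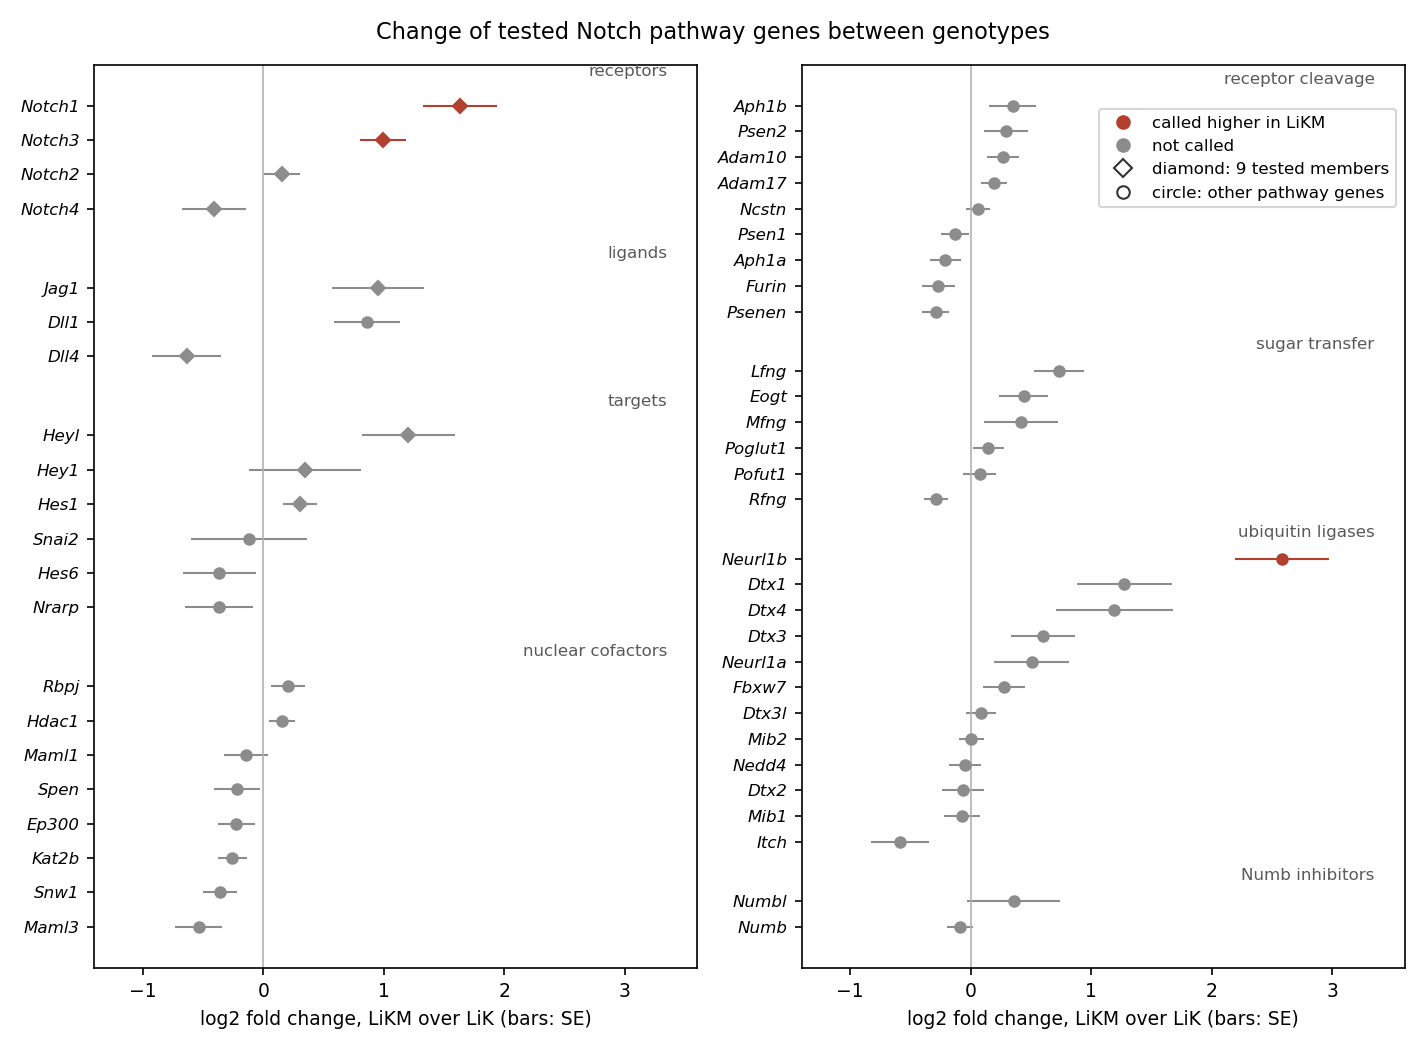
Log2 fold change, LiKM over LiK, of the 9 tested members (diamonds) and 41 of the 42 other tested pathway genes (circles), by role, with the standard error as a bar and called genes in red. Neurl1b at 2.58, Notch1 at 1.63 and Notch3 at 0.99 are the called genes, and the nuclear cofactors lie between -0.54 and 0.21.

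The members did not all follow the same LiKM library. On the log2 difference from the LiK mean, Notch1 stood at 1.63, 2.14 and 0.92 in LiKM 1, 2 and 3, Jag1 at 0.31, 0.38 and 1.69, and Heyl at 0.57, 0.91 and 1.80. Dll4 stood at -0.52, -0.26 and -1.20, and Notch4 at 0.00, -0.39 and -0.94. LiKM 3 was thus the highest LiKM library for Jag1 and Heyl and the lowest for Notch1, Notch3, Notch4, Dll4 and Hey1, by a small margin for Notch3. Mdm2 had the same order as Notch1 in these libraries, at 2.08, 2.11 and 1.07, and Sox9, a bile duct transcription factor, was highest in LiKM 3 like Jag1, at 0.39, 0.34 and 2.00.

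**Figure D4:**
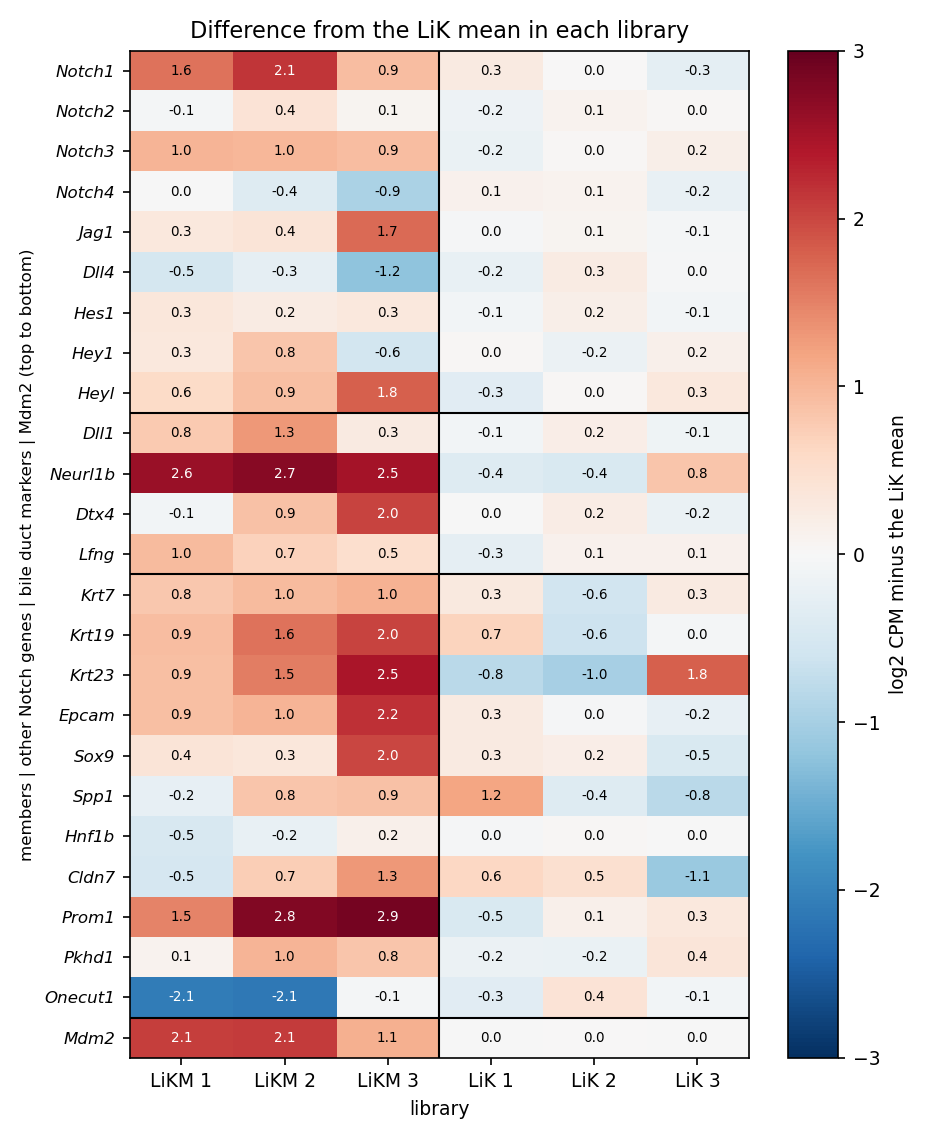
Log2 difference from the LiK mean in each library, LiKM left of LiK, for the 9 tested members, 4 other pathway genes, the 11 tested bile duct and progenitor markers and Mdm2. LiKM 3 holds the largest difference of the LiKM libraries for Jag1 at 1.69 and Heyl at 1.80, and the smallest for Notch1 at 0.92.

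Several of these genes mark cells other than hepatocytes, so marker lists of those cells were summed in the same libraries. Counts of markers called higher with all 6 libraries, here and below, stand beside 5.11% of all tested genes called higher. Bile duct and progenitor markers, 15 listed and 11 tested, summed to 132, 242 and 299 CPM in LiKM and 294, 166 and 135 CPM in LiK, and overlapped. Spp1 alone gave 83.6, 176 and 180 CPM of these sums in LiKM and 225, 76.0 and 56.3 CPM in LiK. Of the 11 tested, 5 had all LiKM libraries above all LiK libraries, against 17.8% of all tested genes. Prom1 was the only one called (2.57 ± 0.44, edgeR adjusted p = 0.0251). Epcam had 1.83, 2.00 and 4.58 CPM in LiKM, against 1.16, 0.906 and 0.780 CPM in LiK, and Krt19 had 1.22, 2.04 and 2.70 CPM in LiKM, against 1.01, 0.352 and 0.575 CPM in LiK. LiKM 3, the library with the most Jag1 and Heyl, was thus also the highest for Sox9, Epcam and Krt19. Not all markers did so: Spp1 was highest in LiK 1, and Pkhd1 in LiKM 2, at 16.4 CPM. Onecut1 was not called (-1.11 ± 0.57, edgeR adjusted p = 0.302), but without LiKM 3 it was called lower (-2.18, edgeR adjusted p = 0.0115). The part of bile duct markers in the Jag1 and Heyl values was not tested.

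Stellate and mural markers, the cells in which Notch3 is best known, summed to 476, 431 and 385 CPM in LiKM and 167, 142 and 244 CPM in LiK. Of 13 tested, 4 were called higher, and the log2 fold change was above 0 for all 13. Col1a1 (1.57 ± 0.30), Pdgfra (1.24 ± 0.25) and Col3a1 (1.53 ± 0.31), collagens and a growth factor receptor of fibroblast-like cells, had the smallest adjusted p in edgeR, between 0.0334 and 0.0377. Cspg4, a pericyte proteoglycan, was at 0 in every LiK library and had 13, 4 and 4 counts in LiKM. Without LiKM 3, 2 of the 13 were called higher, in a fit that called 525 of 13712 tested genes higher. Col3a1 and Reln made up most of each sum. Of the 13 tested, 10 had all LiKM libraries above all LiK libraries, against 17.8% of all tested genes. The markers Acta2 and Myh11 overlapped and were high in LiKM 1 alone. Acta2 had 19.5, 1.36 and 2.31 CPM in LiKM and 0.337, 1.11 and 1.68 CPM in LiK. Myh11 had 25.6, 1.77 and 1.74 CPM in LiKM and 1.11, 2.16 and 1.31 CPM in LiK. The summed levels separated the genotypes, as the Notch3 level did, and the part of these markers in the Notch3 value was not tested.

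Endothelial markers summed to 456, 417 and 339 CPM in LiKM and 315, 337 and 337 CPM in LiK, with 1 of 14 called higher, Plvap (0.74 ± 0.10, edgeR adjusted p = 0.0170). Arterial endothelial markers summed to 33.0, 28.9 and 19.1 CPM in LiKM and 14.6, 14.3 and 16.4 CPM in LiK, with Unc5b called higher (1.33 ± 0.28, edgeR adjusted p = 0.0404), 1 of 6 tested. In LiKM 3, where Dll4 and Notch4 lay below every LiK library, 5 of 14 endothelial markers lay below every LiK library and 3 lay above them all. Of the 6 arterial markers tested, 2 lay below and 3 above in that library. The share of all tested genes lying so in that library was not computed, so these counts have no background to be read against. The part of endothelial cells in the Notch1, Notch4 and Dll4 values was not tested.

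T and natural killer cell markers summed to 13.8, 19.1 and 16.7 CPM in LiKM and 6.84, 5.64 and 3.53 CPM in LiK, with 7 of 8 called higher, led by Cd8a, the coreceptor of cytotoxic T cells (4.10 ± 0.37, edgeR adjusted p = 0.00630), the cytokine receptor gene Il2rb (2.31 ± 0.29) and the kinase gene Lck (3.02 ± 0.40). Cd4, the other tested marker, went the other way without being called (-0.94 ± 0.41, edgeR adjusted p = 0.234). It had 1.93, 1.95 and 1.30 CPM in LiKM and 4.96, 3.37 and 1.68 CPM in LiK. Cd4 thus made up most of the LiK 1 and LiK 2 sums. Nkg7 was at 0 in LiK 2 and Cd3e at 0 in LiK 3. Apart from Il2rb, the called markers had under 10 counts in every LiK library and passed the filter on low counts only through LiKM. The share called higher among all genes that passed in this way was not computed, so 5.11% is not a like background for 7 of 8. Macrophage markers summed to 404, 412 and 346 CPM in LiKM and 221, 273 and 222 CPM in LiK, with 5 of 10 called higher, led by Tyrobp (0.93 ± 0.13), Ctss (1.19 ± 0.16) and Lyz2 (0.63 ± 0.10). Cell division markers summed to 56.8, 65.9 and 78.2 CPM in LiKM and 13.3, 7.20 and 15.7 CPM in LiK, with 6 of 6 called higher, led by Top2a (2.69 ± 0.28), Cdk1 (2.19 ± 0.28) and Mki67 (2.45 ± 0.36). Hepatocyte markers summed to 120856 to 136938 CPM in LiKM and 115502 to 140068 CPM in LiK, mostly from Alb, and overlapped. Of the 10, 8 had a negative log2 fold change, with a median of -0.29, and 5 had all LiKM libraries below all LiK libraries, against 11.8% of all tested genes. Apoa1, a lipoprotein gene, had 8153 to 8804 CPM in LiKM and 9436 to 11730 CPM in LiK and was not called (-0.30 ± 0.17, edgeR adjusted p = 0.348). The part of these cell types in the member values was not tested.

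The genes whose centred log2 CPM over the 6 libraries lay nearest to each called member were sought among 10501 tested genes. These had a log2 CPM averaging 1 or more, and unnamed gene models (Gm and Rik symbols) were passed over. Nearest to Notch1 were Pkmyt1, a kinase that restrains Cdk1, Fen1, a nuclease of DNA replication, and Abcb1b, a drug efflux pump, at root mean square differences of 0.129, 0.172 and 0.181 log2 units beside a median of 0.902 over all compared genes. Fen1, for example, had 12.3, 15.4 and 6.27 CPM in LiKM, against 3.52, 3.57 and 3.45 CPM in LiK, with LiKM 3 the lowest LiKM library as for Notch1. Nearest to Notch3 were Cyba, a subunit of the phagocyte oxidase, Inpp5d, a lipid phosphatase of blood cells, and Robo1, a Slit receptor, at 0.0522, 0.0527 and 0.0610 log2 units beside a median of 0.552. Robo1 had 27.6, 28.3 and 27.0 CPM in LiKM, against 11.7, 14.9 and 14.4 CPM in LiK. All 6 of these genes were called higher in edgeR, and the likeness is a description of 6 libraries that share the genotype difference.

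Exons of 3 members lie opposite another gene of the table in GENCODE vM21: Notch1 shares 1068 bases with 0610009E02Rik, Notch3 488 bases with Gm17276 and Dll4 214 bases with Gm14207. The strand setting of the counting is not given in the sources used here, so reads of such partners cannot be told apart there. The partner rows held few counts, 5 to 10 in LiKM and 5 to 11 in LiK for 0610009E02Rik, 0 to 3 in LiKM and 1 to 3 in LiK for Gm17276, and 9 to 12 in LiKM and 6 to 8 in LiK for Gm14207.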

How the data were processed

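Liver RNA of 3 LiKM and 3 LiK mice was sequenced after messenger RNA selection with a stranded kit, per the labels. The authors deposited raw counts per gene symbol, made with featureCounts and checked with FastQC 0.11.7, as the submitters' processing notes list. The strand setting is not given in the sources used here, nor are aligner, genome build and annotation. Each column name matched 1 sample's title, and 0 columns were left unused.

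Genes were kept with the default filter of edgeR 4.0.16 (minimum count 10, total 15), which left 13537 of 26608 (6335 had no count in any library). A member that passes this filter through only its higher genotype can enter the test; all tested members passed in every library except Hey1. TMM factors, 0.903 to 1.11, scaled the libraries, which were compared by the quasi-likelihood test in R 4.3.3 with genotype as the only term and Benjamini-Hochberg adjustment. Standard errors come from the coefficient and its F statistic. The biological coefficient of variation was 22.3%. Replicate pairs differed beyond sampling noise. The chi-square per gene was 119 and 98.9 for pairs with LiK 3 and 75.1 and 68.7 for pairs with LiKM 3. It was 35.0 for LiK 1 and LiK 2, and 34.5 for LiKM 1 and LiKM 2. Exact intervals use a 95% level and cover counting error only. Nothing in the labels gives litters, so p-values measure the spread between these mice.

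The 10 members and all gene lists were chosen with earlier results of these data known. All members were named. Of the other pathway genes, every called gene and the pair with the highest level in each role without a call were named, and of each marker list the 3 called genes with the smallest adjusted p or, with no call, the pair with the highest level. An allele that both genotypes share and some genes are not reported here. Chosen outside the naming rule, after their values were seen, were Dlk1, Lfng, Dtx4, Rbpj, Nrarp, Sox9, Epcam, Krt19, Cspg4, Nkg7 and Cd3e. So were Spp1, Pkhd1, Onecut1, Cd4, Reln, Acta2 and Myh11. Of 151 list entries, all matched a row, 2 by an older symbol. Lengths come from GENCODE vM21 and promoters from RefSeq (GRCm38.p6), with the last bases before the start left out. The scripts were tested on simulated counts. Alternatives were other scalings (median ratio, upper quartile, library totals), DESeq2 1.42.0, voom in limma 3.58.1, robust shrinkage, no filter, 1 CPM in 3 libraries, the replicate number as a block, leaving out each library, and other lengths for the shares.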

Additional observations from a re-analysis of the deposited data

How the results depend on the processing

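Members called higher, 2 in the fit reported, numbered 3 with DESeq2, 1 with the replicate block and 0 to 1 on leaving out each library. The cause was not tested. Members called lower were 0 throughout. Other pathway genes called higher, 1 as reported, were 2 with DESeq2, 2 with no filter (Dlk1 joined) and 0 to 3 on leaving out each library. Over all tested genes, 692 were called higher, against 1039 with library totals, 1214 with DESeq2 and 18 to 525 on leaving out each library. Called lower were 110, against 63 with library totals, 377 with DESeq2, 166 with the replicate block and 1 to 101 on leaving out each library. Library totals moved the median log2 fold change of all genes to 0.155.

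The replicate numbers were not taken to pair the mice. Libraries with the same number had correlations of 0.267, -0.00028 and 0.127 between their deviations from the genotype means. Those with different numbers had correlations between -0.197 and 0.0459. LiKM 1 and LiKM 3 correlated best with the LiK library of the same number, and LiKM 2 with LiK 3, at 0.0434. These values do not decide whether the numbers pair mice. With the replicate block, Notch3 had a log2 fold change of 1.00 and an adjusted p of 0.0533 in edgeR, and 1 other pathway gene was called lower (Itch, -0.59, adjusted p = 0.0355).

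On leaving out a library, signs turned for Notch2 and Hey1 without LiKM 2 and for Trp53 without LiKM 3: the log2 fold changes ranged from -0.020 to 0.23 for Notch2, from -0.092 to 0.65 for Hey1 and from -0.039 to 0.33 for Trp53. The Hey1 share difference, -0.063 percentage points as reported, ranged from -0.976 to 0.881, with 0.0809 without LiK 1 and 0.207 without LiK 3. Cdkn1a was called under 6 alternatives. The other shares kept their direction under raw counts, transcript lengths and each omission. Jag2, at 2 to 11 counts per library, was tested only where the filter let it pass.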
